A study of Mus musculus with 16 samples.

Results

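The collagen genes of the mouse were followed through livers and liver tumours of mice given a high-fructose or a cornstarch diet. Genes were taken by their symbol, which had to consist of Col, a number, the letter a and a number. Of the 47069 gene identifiers measured, 44 matched. The 29 of them with a normalised count of at least 10 in at least 2 of the 16 libraries are described here: 8 of the 11 fibrillar collagens, 7 of the 8 basement membrane collagens and 14 of the 25 others. Gene expression had been measured by sequencing mRNA from the tissue of mice treated with diethylnitrosamine (DEN), a carcinogen that hepatocytes activate and that induces hepatocellular carcinoma. All 16 libraries, those of the cornstarch diet included, came from DEN-treated mice, and none from an untreated mouse was analysed here. The 6 groups were tumours at 9 months under the high-fructose diet (3 libraries) and under cornstarch (2 libraries), liver at 9 months under fructose (3) and cornstarch (3), and liver at 5 months under fructose (2) and cornstarch (3). Cornstarch, a glucose polymer, was the carbohydrate of the comparison diet. Strain and sex were not given in the labels, nor whether libraries came from separate mice or whether a tumour and a liver shared a mouse. The p-values therefore measure only the spread between these libraries, part of which may be technical.

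Collagens are proteins of the extracellular matrix whose chains wind around each other into a helix. Fibrillar collagens, led by types I and III, form the fibres that accumulate in a scarred liver, where activated stellate cells and portal fibroblasts are their main known source. Type IV collagen forms the network of basement membranes around vessels and ducts, and types XV and XVIII attach to it. The remaining types include the beaded filaments of type VI, collagens that sit on the surface of fibrils such as types XII, XIV and XVI, and collagens anchored in the cell membrane such as types XIII and XXIII.

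Recovered read totals over all listed genes ranged from 11232461 to 38377674 per library. Replicate 1 of the 5-month fructose livers and replicate 1 of the 5-month cornstarch livers stood apart by sex. Xist, made from the inactive X chromosome of females, read 12936 and 10883 normalised counts in them, and the summed Y-linked genes read 0 and 1.91, against 1593 to 2602 in the other 14 libraries. Among these 14, replicate 3 of the 9-month cornstarch livers had the highest Xist, at 226, and the lowest Y-linked sum, at 1593. In the remaining libraries Xist read at most 25.8. The source of this Xist signal was not tested. Hepatocyte markers were abundant in every library, at a sum of 1310022 to 4178662 normalised counts over 8 genes. Of 7 bone and cartilage genes Bglap, Ibsp and Sp7 were at 0 throughout, as were 3 collagens, Col2a1, Col19a1 and Col26a1. Acan, Comp and Matn3 read at most 4.57 normalised counts. Runx2 ranged from 1.33 to 83.5, at 35.0 and 36.6 in 5-month fructose livers against 1.33 to 3.08 in 5-month cornstarch livers. Just inside the level threshold were Col22a1 and Col7a1, whose second-largest values were 11.3 and 12.6 normalised counts. Just outside were Col24a1 at 9.53 and Col9a3 at 9.14, and the other 10 members outside it had a second-largest value of at most 7.84 normalised counts.

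Col18a1 dominated the family. It encodes type XVIII collagen, a basement membrane proteoglycan from which endostatin is cut, and hepatocytes are a known source of it. Per kilobase of exon it averaged 2345 normalised counts over the 16 libraries, against 182 for Col4a1, 171 for Col14a1, 121 for Col4a2 and 82.7 for Col3a1, which followed. It read 11637 to 15324 normalised counts in fructose tumours, 12505 and 16109 in cornstarch tumours, 13599 to 18359 in 9-month fructose livers, 15242 to 21549 in 9-month cornstarch livers, 19095 and 17534 in 5-month fructose livers and 17641 to 19633 in 5-month cornstarch livers. These ranges overlapped between the diets at each age and between tumour and liver, and Col18a1 passed no test in any comparison. It made up 55.2% to 82.2% of the summed counts of the 29 genes in a library, so sums are given without it from here on.

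Without Col18a1, the other 28 genes summed to 9261, 10989 and 10768 normalised counts in fructose tumours and to 10141 and 8538 in cornstarch tumours. They summed to 9529, 7255 and 7645 in 9-month fructose livers, against 5686, 5435 and 7655 in 9-month cornstarch livers. At 5 months the sums were 10228 and 10257 in fructose livers, against 3838, 6060 and 5200 in cornstarch livers. The diets did not overlap at 5 months, and at 9 months replicate 3 of the cornstarch livers reached into the fructose range. What filled these sums differed: types I and III (Col1a1, Col1a2 and Col3a1) took 19.1% to 32.0% of the counts in 9-month fructose livers against 8.08% to 9.67% in 9-month cornstarch livers. At 5 months they took 21.7% and 19.8% under fructose, against 14.2%, 9.34% and 8.17% under cornstarch. The 5 type IV genes took 41.8%, 56.1% and 48.0% of the counts in fructose tumours and 23.5% and 53.1% in cornstarch tumours, against 11.4% to 28.9% in the 9-month livers of both diets. Shares in a library sum to a fixed total, so one class gains where another loses.

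**Figure D1:**
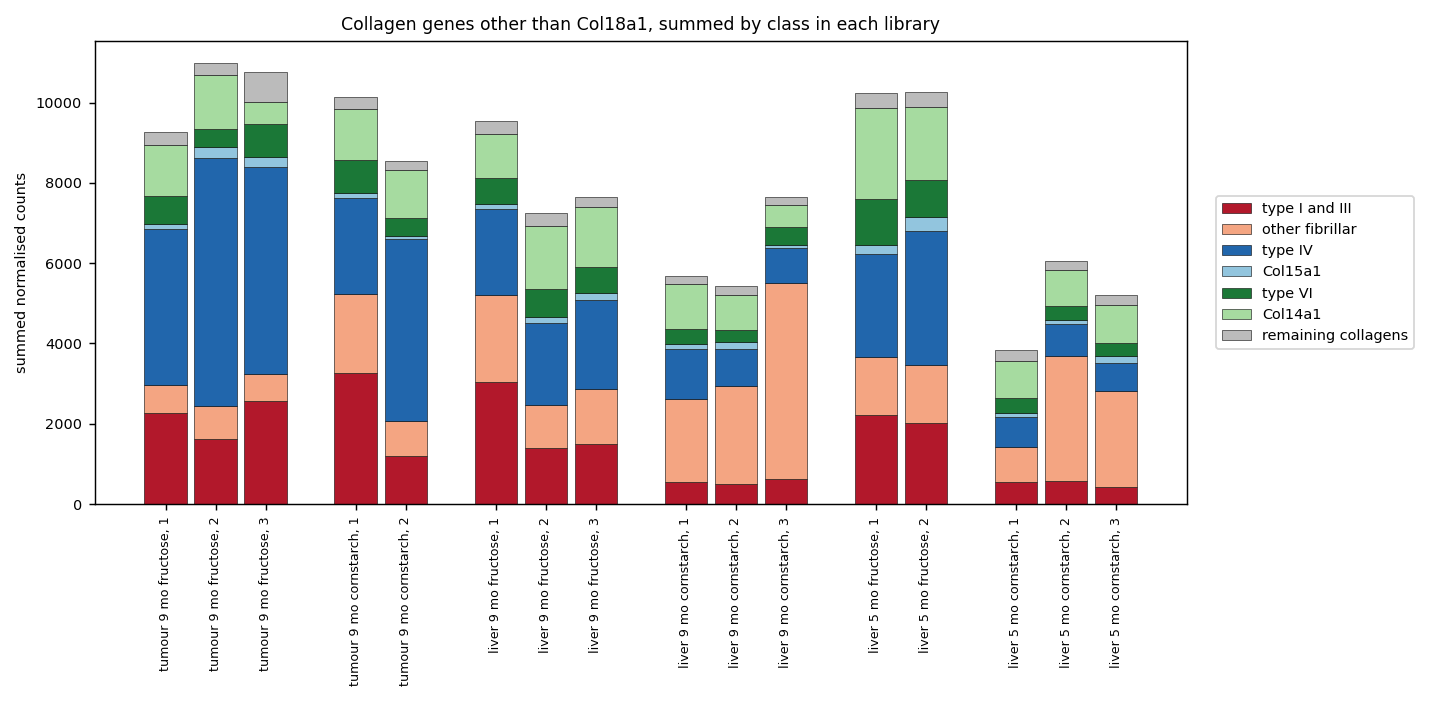
Normalised counts of the 28 reported collagen genes other than Col18a1, stacked by class (y axis) for each of the 16 libraries (x axis, by group and replicate number). Types I and III are small in the cornstarch livers, at 425 to 618 counts. Type IV is highest in a fructose tumour, at 6165 counts. In replicate 1 of the cornstarch tumours it is 2386, below both 5-month fructose livers, at 2567 and 3358.

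Genomic sequence is shown for 4 start regions that belong to members the results turn on. They are Col3a1, 1 of the fibrillar genes that were higher under fructose, Col5a3, the fibrillar gene that was lower in tumours, and the shared starts of the type IV pairs. Sequences and starts are from RefSeq on GRCm38.p6, written 5′ to 3′ on the strand named. The starts of Col4a4 and Col4a3 are instead those of GENCODE M21. Capitals mark the motifs searched on both strands with any overlap allowed: CCAAT (the CCAAT box), GGGCGG (the GC box) and TATAAA (the TATA box). The 250 bases before the Col3a1 start (chr1:45311288-45311537, + strand) hold a TATA box and neither of the other motifs.
Col3a1: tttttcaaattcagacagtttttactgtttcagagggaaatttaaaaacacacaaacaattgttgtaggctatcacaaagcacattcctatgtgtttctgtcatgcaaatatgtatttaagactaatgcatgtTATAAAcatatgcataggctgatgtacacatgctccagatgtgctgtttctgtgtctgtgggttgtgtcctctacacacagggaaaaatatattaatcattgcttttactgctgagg
The 250 bases before the Col5a3 start (chr9:20815068-20815317, - strand) hold 1 CCAAT box and 2 GC boxes, which read CCGCCC on this strand.
Col5a3: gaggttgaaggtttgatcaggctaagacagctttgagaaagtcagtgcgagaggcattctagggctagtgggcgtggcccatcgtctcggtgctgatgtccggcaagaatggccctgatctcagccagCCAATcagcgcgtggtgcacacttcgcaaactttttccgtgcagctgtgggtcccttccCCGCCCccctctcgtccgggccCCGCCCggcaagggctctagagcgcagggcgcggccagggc
Col4a1 and Col4a2 lie head to head on chromosome 8, and the first exon of each overlaps the other by 22 bases (chr8:11312805-11312826, + strand) with 1 GC box.
Col4a1 and Col4a2: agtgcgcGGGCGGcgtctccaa
Col4a4 and Col4a3 lie head to head on chromosome 1 with 71 bases between their annotated starts (chr1:82586850-82586920, - strand), which hold none of the motifs.
Col4a4 and Col4a3: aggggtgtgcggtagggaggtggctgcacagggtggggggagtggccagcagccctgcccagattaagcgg
The table of start regions held an entry for 23 of the 29 genes, with 25 regions in all. The GC box occurred in 16 of these 25 regions and in 32.7% of all 32851 regions of the same length, the CCAAT box in 8 and in 33.8%, and the TATA box in 3 and in 12.4%. The regions of Col1a2 and Col5a1, fibrillar genes that also rose under fructose, differed from that of Col3a1. Each held 2 GC boxes and 0 TATA boxes, with 1 CCAAT box in Col1a2 and 0 in Col5a1. A match describes these letters only.

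The comparison of diets in liver asked which collagen genes differed between the fructose and the cornstarch diet in DEN-treated liver at each age. Col1a1, Col1a2 and Col3a1 of the scar fibres and Col4a1 and Col4a2 of the basement membrane rose under fructose at both ages, and no member was called lower. At 5 months 14 members rose under fructose and 0 fell, where 10.3% of all 14317 genes tested rose and 4.48% fell. Col6a5 is left out of this count: of the 28 tested members 15 were called with it, but it could be tested only because it was high under fructose. At 9 months 7 of 28 rose and 0 fell, where 2.32% of all genes rose and 0.217% fell. These 7 were Col1a1, Col1a2, Col3a1, Col4a1, Col4a2, Col6a2 and Col6a3, and each of them had also risen at 5 months. Over both ages 12 rose and 0 fell, again without Col6a5 (13 with it), where 13.8% of all genes rose and 7.61% fell. At each age 7 of the 28 log2 fold changes were negative, that of Col27a1 at -1.63 at 5 months and -1.49 at 9 months. The members had a median log2 fold change of 1.07 at 5 months (all genes -0.01), 0.67 at 9 months (all genes -0.02) and 0.86 over the ages together (all genes -0.01). Members that did not rise included Col18a1, Col27a1, Col5a2, Col5a3, Col11a2 and the minor type IV genes Col4a3, Col4a4 and Col4a5. Calls used limma on log2(normalised count + 1), adjusted over all genes by Benjamini and Hochberg, and fold changes on this scale understate the change of low genes. Col22a1 did not reach the level needed for a test. In whole tissue, more cells of a type and more RNA per cell cannot be told apart.

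These calls rest on few libraries. The count at 9 months was 0 without replicate 1 or replicate 3 of the fructose livers, 2 without replicate 2 of the fructose livers or replicate 3 of the cornstarch livers, and 4 without replicate 2 of the cornstarch livers. With every library 363 genes of all kinds were called at 9 months, and without any 1 of the 3 fructose livers or without replicate 3 of the cornstarch livers at most 11 were. By gene, Col4a1 lost its 9-month call without replicate 1 or 3 of the fructose livers, and Col3a1 without these or replicate 3 of the cornstarch livers. Col1a2 lost it without any fructose liver, and Col6a2 without any fructose liver or replicate 3 of the cornstarch livers. Col1a1, Col4a2 and Col6a3 kept it only without replicate 1 of the cornstarch livers. The sizes moved less: with a library left out, the 9-month log2 fold change stayed at 1.20 to 1.40 for Col4a1, 1.64 to 2.12 for Col1a2, 1.14 to 1.61 for Col3a1 and 1.96 to 2.86 for Col1a1.

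The count at 5 months was 8 and 9 without replicate 1 and replicate 2 of the fructose livers. It was 7 without the 2 libraries that stood apart by sex, which leaves 1 fructose liver whose spread was taken to be that of the other groups. These 7 were Col1a2, Col3a1, Col4a1, Col4a2, Col6a1, Col6a2 and Col8a1. The same omission left 2 calls at 9 months, Col1a2 and Col4a1, because both ages share an estimate of the spread, and 12 over both ages with Col6a5 included. Col1a1 lost its 5-month call without either fructose liver or replicate 3 of the cornstarch livers, and Col5a1 and Col6a3 without replicate 1 of the fructose livers. Over both ages the count, here with Col6a5 included, stayed between 13 and 16 with any 1 library left out, and all but Col8a1 of the 13 kept their call in each of these fits. Col8a1 lost it without replicate 2 of the 5-month fructose livers.

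Type I collagen is a product of Col1a1 (ENSMUSG00000001506, GRCm38 chromosome 11, 94936224 to 94953042) and Col1a2 (chromosome 6, 4504814 to 4541544), which encode its chains. Col1a1 read 861, 256 and 247 normalised counts in 9-month fructose livers, against 51.1, 53.8 and 95.3 in 9-month cornstarch livers. In 5-month livers it read 350 and 254 under fructose, against 74.4, 76.0 and 39.9 under cornstarch. The diets did not overlap at either age, and replicate 1 of the 9-month fructose livers stood far above the rest. The log2 fold change of Col1a1 was 2.55 (SE 0.47, limma adjusted p = 0.0288) at 9 months and 2.27 (SE 0.52, adjusted p = 0.0164) at 5 months. Col1a2 read 813, 417 and 413 normalised counts in 9-month fructose livers, against 126, 112 and 166 in 9-month cornstarch livers. At 5 months Col1a2 read 602 and 592 under fructose, against 201, 183 and 138 under cornstarch. Every fructose liver was above every cornstarch liver of its age. Col1a2 rose by 1.96 (SE 0.26, limma adjusted p = 0.0243) at 9 months and by 1.79 (SE 0.30, adjusted p = 0.0033) at 5 months on the log2 scale.

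Type III collagen, which forms finer fibres beside type I, is encoded by Col3a1 (ENSMUSG00000026043, chromosome 1, 45311538 to 45349706). Its normalised counts were 1374, 713 and 836 in 9-month fructose livers, against 372, 324 and 357 in 9-month cornstarch livers. At 5 months they were 1272 and 1181 in fructose livers, against 269, 307 and 246 in cornstarch livers. The spread within each cornstarch group was small beside the gap between the diets. Col3a1 rose by 1.41 (SE 0.21, limma adjusted p = 0.0243) at 9 months and by 2.16 (SE 0.23, adjusted p = 0.00047) at 5 months on the log2 scale.

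Type V collagen sets the diameter of type I fibres, and of its 3 genes Col5a1 passed a test of diet in liver while Col5a2 and Col5a3 did not. Col5a1 (chromosome 2, 27886425 to 28039514) read 220, 194 and 201 normalised counts in 9-month fructose livers, against 167, 76.8 and 144 in 9-month cornstarch livers. In 5-month livers it read 381 and 302 under fructose, against 144, 114 and 90.5 under cornstarch. No cornstarch liver reached a fructose liver of its age, yet the change passed the test only at 5 months of the ages taken singly (log2 fold change 1.56, SE 0.31, limma adjusted p = 0.0077), with 0.73 (SE 0.27, adjusted p = 0.173) at 9 months. Col5a2, which lies tail to tail with Col3a1 on chromosome 1 with 24614 bases between them, passed no test of diet. It ranged from 198 to 277 normalised counts in the 5 fructose livers and from 53.8 to 268 in the 6 cornstarch livers. Col5a3 and Col27a1, a fibrillar collagen of growing cartilage, varied most among the cornstarch livers. Col5a3 spanned 85.9 to 1612 normalised counts in the 6 cornstarch livers and 314 to 713 in the 5 fructose livers. The 85.9 was in replicate 1 of the 5-month cornstarch livers, 1 of the 2 libraries that stood apart by sex. The other cornstarch livers read 821 to 1612, above every fructose liver. Col27a1 spanned 335 to 3451 normalised counts in the cornstarch livers and 238 to 1200 in the fructose livers, with a log2 fold change over both ages of -1.56 (SE 0.61, limma adjusted p = 0.0927). Col27a1 was called lower under fructose in 4 of 26 alternative fits over both ages, among them those without replicate 1 of the 9-month fructose livers and without replicate 1 of the 5-month cornstarch livers. Of the 8 fibrillar members, 4 rose at 5 months and 3 at 9 months.

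**Figure D2:**
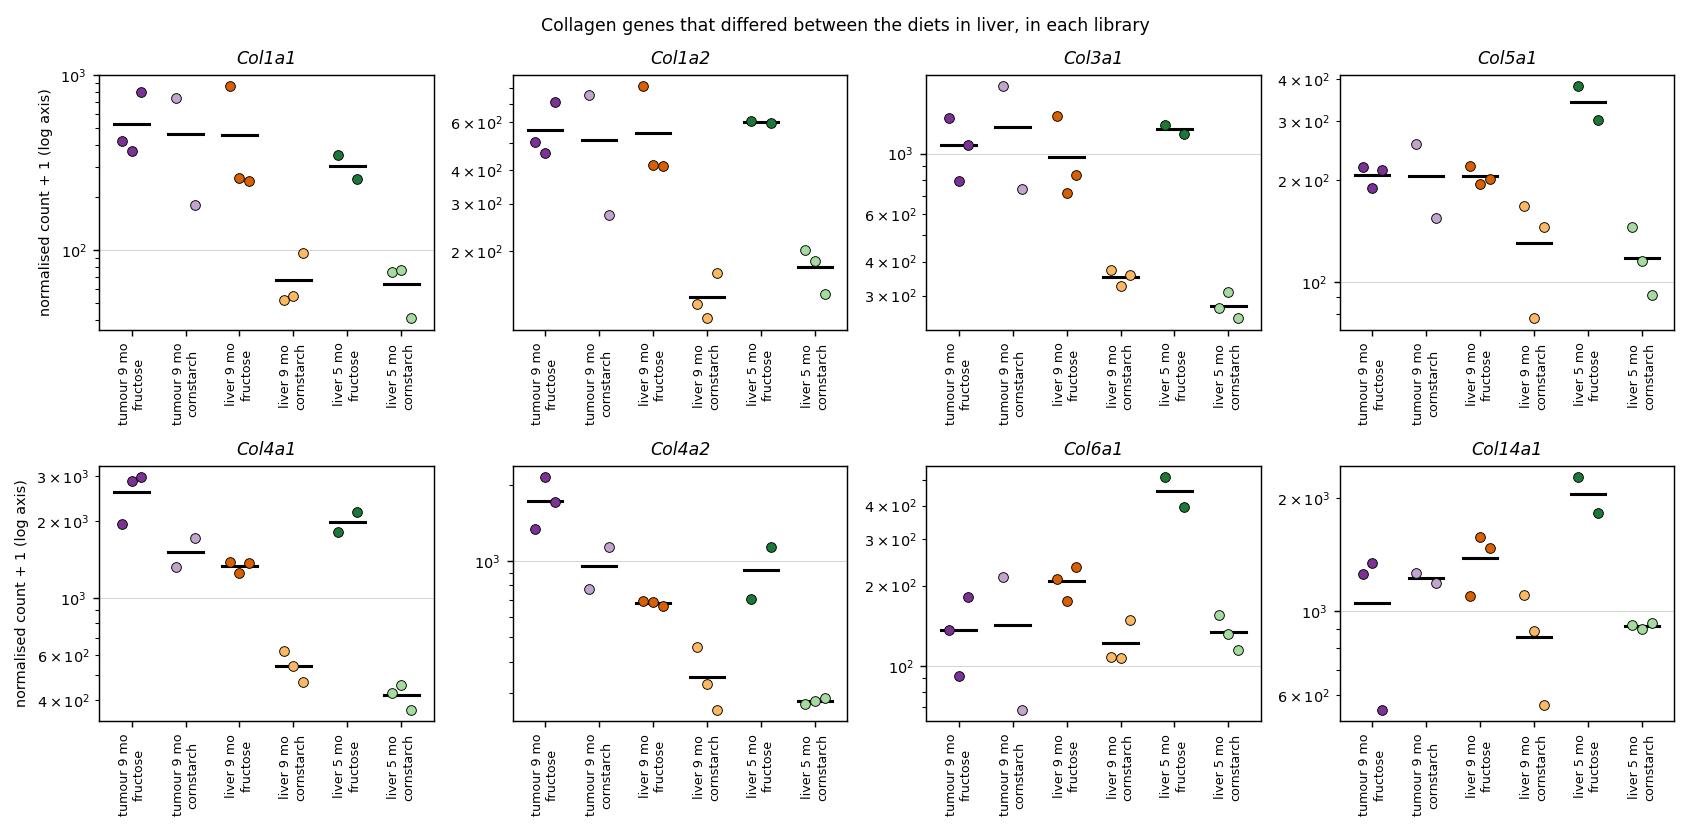
Normalised count + 1 on a log axis for 8 collagen genes in each library (points), with the mean of each group (horizontal lines), for 2 tumour groups and 4 liver groups. Every fructose liver lies above every cornstarch liver of its age for Col1a1, Col1a2, Col3a1, Col5a1, Col4a1, Col4a2 and Col6a1, and Col14a1 comes close at 9 months, where 1097 in a fructose liver faces 1107 in a cornstarch liver.

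The chains of the widespread form of type IV collagen are encoded by Col4a1 (ENSMUSG00000031502, chromosome 8, 11198423 to 11312826) and Col4a2 (chromosome 8, 11312805 to 11449287), whose shared start is printed above. Col4a1 read 1390, 1251 and 1375 normalised counts in 9-month fructose livers, against 619, 542 and 472 in 9-month cornstarch livers. Livers at 5 months held 1816 and 2169 under fructose, against 426, 457 and 366 under cornstarch. Among the members Col4a1 had the smallest p at each age: it rose by 1.30 (SE 0.14, limma adjusted p = 0.0240) at 9 months and by 2.26 (SE 0.15, adjusted p = 6.35e-05) at 5 months on the log2 scale. Col4a2 read 693, 686 and 661 normalised counts in 9-month fructose livers, against 455, 326 and 257 in 9-month cornstarch livers. At 5 months Col4a2 read 704 and 1132 under fructose, against 271, 278 and 285 under cornstarch. The log2 fold change of Col4a2 was 1.01 (SE 0.21, limma adjusted p = 0.0392) at 9 months and 1.68 (SE 0.24, adjusted p = 0.0016) at 5 months. The ratio of Col4a1 to Col4a2 counts lay between 1.29 and 2.58 in all 16 libraries, at 1.82 to 2.08 in 9-month fructose livers against 1.36 to 1.83 in 9-month cornstarch livers. At 5 months it was 2.58 and 1.92 under fructose, against 1.29 to 1.64 under cornstarch. Whether reads were counted by strand is not known, so reads over the 22 shared bases cannot be assigned.

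Col15a1 (chromosome 4, 47208161 to 47313167), whose product links basement membranes to the fibres beneath, rose at 5 months and not at 9 months. It read 216 and 326 normalised counts in 5-month fructose livers, against 104, 93.5 and 173 in 5-month cornstarch livers. At 9 months it read 110, 160 and 176 under fructose, against 141, 172 and 91.7 under cornstarch, and the diets overlapped. The 5-month log2 fold change of Col15a1 was 1.15 (SE 0.34, limma adjusted p = 0.0483), and the call was kept in 1 of the 5 fits with a library left out, the one without replicate 3 of the cornstarch livers. Col4a3, Col4a4 and Col4a5, the chains of the basement membranes of kidney, lung and inner ear, stood at 0 to 120 normalised counts in the 11 livers and passed no test of diet there. Of the 7 basement membrane members, 3 rose at 5 months and 2 at 9 months.

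Type VI collagen forms beaded filaments around cells. Col6a2 (chromosome 10, 76595762 to 76623630) and Col6a1 (chromosome 10, 76708792 to 76726168) lie on the same strand with 85161 bases between them, and Col6a3 lies on chromosome 1 (90765923 to 90843971). Col6a1 read 211, 175 and 235 normalised counts in 9-month fructose livers, against 107, 106 and 148 in 9-month cornstarch livers. Livers at 5 months held 509 and 395 under fructose, against 155, 130 and 113 under cornstarch. The groups did not overlap at either age, and the 5-month fructose livers were the highest of all groups. The log2 fold change of Col6a1 was 1.76 (SE 0.22, limma adjusted p = 0.00091) at 5 months and 0.78 (SE 0.19, adjusted p = 0.0632) at 9 months. Col6a2 read 127, 150 and 130 normalised counts in 9-month fructose livers, against 72.3, 61.5 and 81.0 in 9-month cornstarch livers. At 5 months Col6a2 read 236 and 195 under fructose, against 68.7, 63.7 and 69.2 under cornstarch. It rose at both ages, by 0.92 (SE 0.16, limma adjusted p = 0.0279) at 9 months and by 1.66 (SE 0.18, adjusted p = 0.00050) at 5 months on the log2 scale. Col6a3 read 272, 280 and 240 normalised counts in 9-month fructose livers, against 162, 99.9 and 144 in 9-month cornstarch livers. At 5 months Col6a3 read 353 and 246 under fructose, against 144, 134 and 124 under cornstarch. It rose by 0.98 (SE 0.20, limma adjusted p = 0.0365) at 9 months and by 1.13 (SE 0.22, adjusted p = 0.0082) at 5 months on the log2 scale.

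The further type VI genes were low. Col6a6 (chromosome 9, 105687809 to 105828160) read 36.4, 31.4 and 40.3 normalised counts in 9-month fructose livers, against 26.0, 18.4 and 56.0 in 9-month cornstarch livers, which overlapped. In 5-month livers it read 37.9 and 73.1 under fructose, against 11.5, 23.6 and 14.6 under cornstarch, and rose by 1.67 (SE 0.47, limma adjusted p = 0.0398) on the log2 scale. That call was kept in 1 of 5 fits with a library left out, the one without replicate 2 of the cornstarch livers. Col6a5, its neighbour on chromosome 9, read 20.4 and 30.8 normalised counts in 5-month fructose livers against 1.33 to 4.11 in 5-month cornstarch livers. Col6a5 could be tested only because it was high under fructose, so its calls at 5 months and over both ages are no support for a difference and are left out of the counts of members that rose, unless stated.

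Among the collagens that sit on fibrils, Col14a1 (chromosome 15, 55307750 to 55520803) had the highest level per kilobase, at a mean of 171 normalised counts over the 16 libraries. It read 1097, 1579 and 1476 normalised counts in 9-month fructose livers, against 1107, 885 and 565 in 9-month cornstarch livers. At 5 months it read 2271 and 1822 under fructose, against 917, 896 and 931 under cornstarch. The 5-month cornstarch livers differed little from each other, and the diets overlapped by a narrow margin at 9 months. Col14a1 rose at 5 months (log2 fold change 1.15, SE 0.25, limma adjusted p = 0.0136), while the 9-month difference was 0.74 (SE 0.23, adjusted p = 0.114). Without replicate 1 or replicate 2 of the 5-month fructose livers the 5-month call was lost. Col16a1 (chromosome 4, 130047840 to 130099283) read 133 and 90.2 normalised counts in 5-month fructose livers, against 57.3, 46.2 and 59.9 in 5-month cornstarch livers. At 9 months it read 53.1, 62.7 and 71.6 under fructose, against 37.6, 47.6 and 39.3 under cornstarch. Col16a1 rose at 5 months, by 1.0 (SE 0.24, limma adjusted p = 0.0209) on the log2 scale, a call that was lost without replicate 1 of the fructose livers or replicate 2 of the cornstarch livers. Col8a1, a short-chain collagen of vessel walls, rose at 5 months as well, at 21.9 and 105 normalised counts under fructose against 6.16 to 11.5 under cornstarch. Its call was lost without replicate 2 of the fructose livers or replicate 2 or 3 of the cornstarch livers. Col12a1 passed no test of diet in liver. Of the other collagens, 7 rose at 5 months, without Col6a5, and 2 of 13 tested at 9 months.

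The membrane collagen gene Col13a1 had a higher mean under fructose at 9 months and a lower one at 5 months, and passed neither test. It read 63.4 to 139 normalised counts in 9-month fructose livers, against 42.9 to 82.0 in 9-month cornstarch livers, while at 5 months it read 64.2 and 70.8 under fructose, against 97.6 to 100.2 under cornstarch. The log2 fold change of 0.81 (SE 0.30) at 9 months had a limma adjusted p of 0.172. Col20a1 was named after its values were seen, as a member with lower means under fructose at both ages: 17.7, 19.0 and 16.3 normalised counts in 9-month fructose livers, against a mean of 35.1 in 9-month cornstarch livers. At 5 months Col20a1 read 24.0 and 33.5 under fructose, against 27.7 to 60.1 under cornstarch, and it passed no test. Col20a1 shares 79 exonic bases with a transcript on the same strand, BX649560.1, whose mean was 54.3 normalised counts. How reads over these bases were assigned is not known. Col7a1, Col11a2, Col22a1 and Col23a1 stayed at or below 43.8 normalised counts in every liver.

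**Figure D3:**
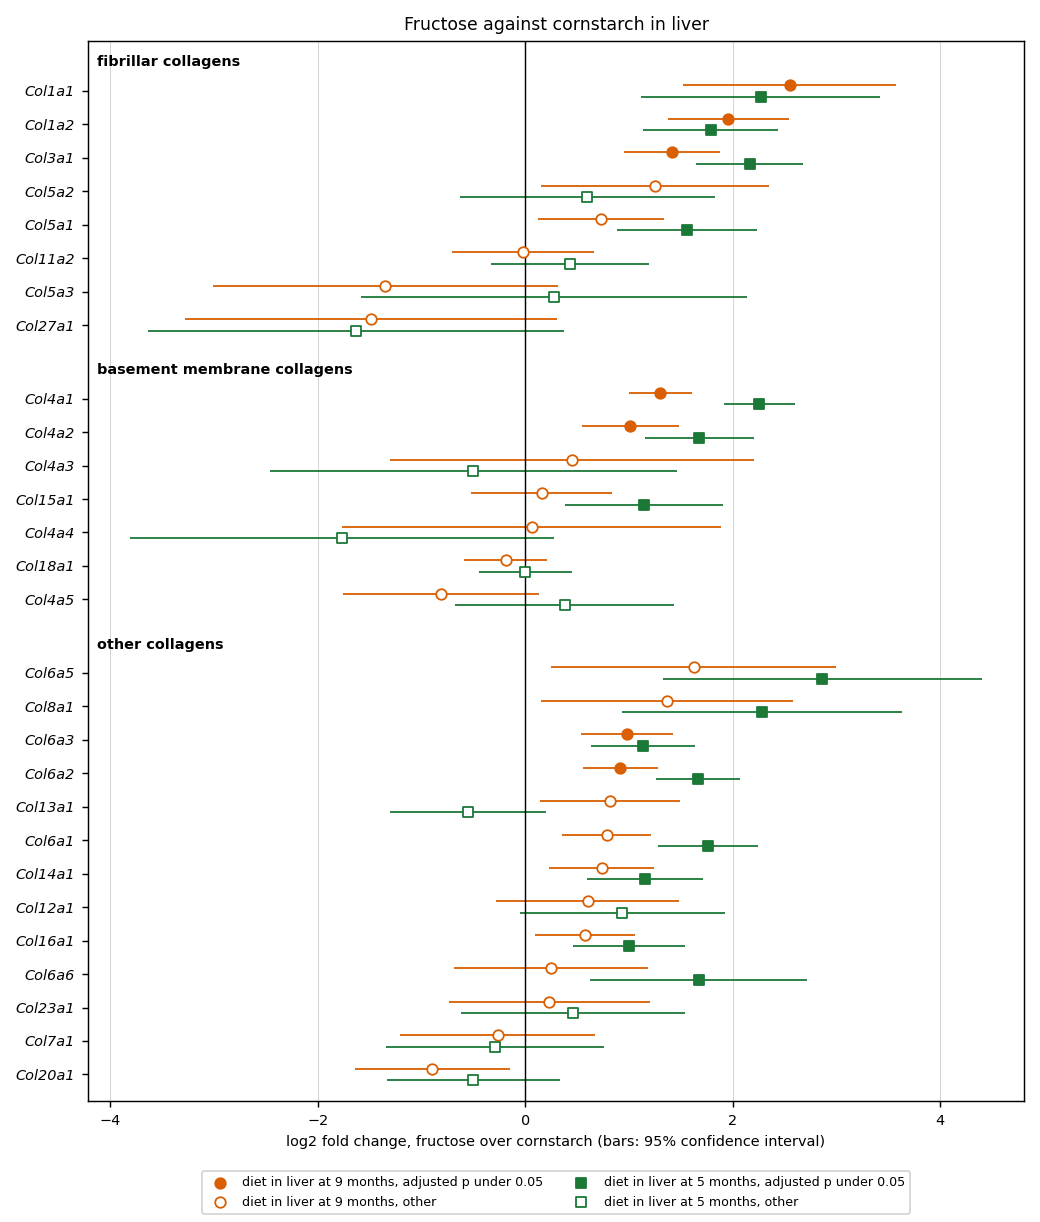
Log2 fold change of fructose over cornstarch in liver (x axis, with 95% confidence intervals) for the 28 tested collagen genes by class, at 9 months (circles) and at 5 months (squares), with filled symbols for a limma adjusted p under 0.05. The 7 filled circles and 15 filled squares, that of Col6a5 included, all lie right of 0, and 7 symbols at each age lie left of it.

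Whether the diet effect differed between the ages was tested as the difference of both effects, 9 minus 5 months. No collagen passed this test with limma or edgeR, where limma called 0.698% of all genes. Col4a1 passed with DESeq2, and 6 members had an unadjusted limma p under 0.05, as had 1641 of all genes. DESeq2 called 318 of all genes. In limma Col4a1 came closest, at -0.95 (SE 0.21, limma adjusted p = 0.0753), so its rise was smaller at 9 months by that amount on the log2 scale. It also passed with array weights. For Col6a1 the difference was -0.98 (SE 0.29, adjusted p = 0.209), for Col6a2 -0.75 (SE 0.25, adjusted p = 0.261) and for Col13a1, in the other direction, 1.37 (SE 0.46, adjusted p = 0.269). The median over the members was -0.42, beside -0.02 for all genes.

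Age itself, 9 against 5 months over both diets, moved few collagen genes. Col6a1 alone was called, lower at 9 months, where 2% of all genes were lower and 0.768% higher. Its log2 fold change was -0.64 (SE 0.15, limma adjusted p = 0.0469). The call was lost without any 1 of 10 of the 11 livers, the exception being replicate 3 of the 9-month cornstarch livers. For Col16a1 the log2 fold change was -0.60 (SE 0.16, adjusted p = 0.0759). Col4a3 (ENSMUSG00000079465, chromosome 1, 82586921 to 82722059) read 27.1, 48.2 and 120.0 normalised counts in 9-month fructose livers and 70.4, 10.8 and 76.2 in 9-month cornstarch livers. At 5 months it read 16.0 and 5.71 under fructose and 19.1, 21.6 and 6.66 under cornstarch. The ages overlapped, and the log2 fold change of Col4a3 was 1.89 (SE 0.60, limma adjusted p = 0.109). The 5-month groups each held a library of the other sex, and no 9-month library did. The median over the members was -0.09, beside -0.01 for all genes.

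Some of the genes for making and cross-linking collagen rose in the fructose livers as well. Of 27 tested genes of collagen synthesis 12 rose and 1 fell at 5 months, where 10.3% of all genes rose and 4.48% fell, with a median log2 fold change of 0.63. At 9 months 3 of the 27 rose and 0 fell, where 2.32% of all genes rose and 0.217% fell, with a median of 0.40. The median over all genes was -0.01 at 5 months and -0.02 at 9 months. Loxl2, a lysyl oxidase that cross-links collagen, rose by 2.28 (SE 0.27, limma adjusted p = 0.00078) at 5 months and by 1.78 (SE 0.24, adjusted p = 0.0243) at 9 months on the log2 scale. Pcolce, which speeds removal of the propeptide, rose by 2.16 (SE 0.30) and Adamts2, the enzyme that cuts the amino-terminal propeptide, by 1.54 (SE 0.26) at 5 months, with adjusted p of 0.0015 and 0.0035. At 9 months the other 2 genes that rose were Lox, by 3.49 (SE 0.60, adjusted p = 0.0248), and P3h2, a prolyl hydroxylase of basement membrane collagen, by 1.38 (SE 0.30, adjusted p = 0.0424). The gene that fell at 5 months was Mia3, needed to export procollagen, at -0.63 (SE 0.15, adjusted p = 0.0183). Mia3 lost its call without replicate 1 or 2 of the fructose livers or replicate 3 of the cornstarch livers.

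Of 9 tested collagen receptors, 2 rose at 5 months and 1 at 9 months, and 0 fell at either age. For this and the next lists the shares of all genes that rose were again 10.3% at 5 months and 2.32% at 9 months. Ddr1, a receptor tyrosine kinase for collagen, rose by 1.34 (SE 0.25, limma adjusted p = 0.0061) at 5 months and by 1.38 (SE 0.22, adjusted p = 0.0243) at 9 months on the log2 scale. Itga2, an integrin subunit, rose by 3.39 (SE 0.70, adjusted p = 0.0101) at 5 months. Of 16 partners of the basement membrane 6 rose at 5 months and 2 at 9 months, and 0 fell. The collagen-binding protein gene Sparc rose at both ages, by 1.52 (SE 0.21, limma adjusted p = 0.0014) at 5 months and by 0.93 (SE 0.18, adjusted p = 0.0336) at 9 months. The laminin genes Lama1 and Lamb1 rose by 1.74 (SE 0.30, adjusted p = 0.0039) and 1.16 (SE 0.20, adjusted p = 0.0041) at 5 months, and Lama2 rose by 1.44 (SE 0.27, adjusted p = 0.0300) at 9 months. Of 18 genes of TGF-beta signalling, the pathway best known for inducing collagen genes, 4 rose at 5 months and 2 at 9 months, and 0 fell. Tgfb1, the main ligand, rose by 1.38 (SE 0.26, limma adjusted p = 0.0065) at 5 months and by 1.09 (SE 0.23, adjusted p = 0.0421) at 9 months. Ltbp3, which binds latent TGF-beta, rose by 1.15 (SE 0.25, adjusted p = 0.0435) at 9 months. Of these calls, Ddr1, Itga2, Lama1 and Tgfb1 at 5 months were lost without replicate 2 of the fructose livers, Itga2 also without replicate 1. At 9 months each named call of these lists was lost without any of the 3 fructose livers and without replicate 3 of the cornstarch livers. Ltbp3, P3h2 and Sparc also lost it without replicate 2 of the cornstarch livers, and P3h2 and Tgfb1 without replicate 1. Whether Lox, Itga2 or other genes of these lists could be tested only because they were high under fructose was not checked.

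Marker sums of several cell types differed between the diets in the same livers. Stellate cell markers (10 genes) summed to 8185 to 9567 normalised counts in 9-month fructose livers, against 6122 to 7518 in 9-month cornstarch livers, and to 14488 and 12992 in 5-month fructose livers, against 6954 to 8751 in 5-month cornstarch livers. Of the 10, 1 rose at 9 months and 4 at 5 months. Myofibroblast markers (8 genes) summed to 1090 to 1848 in 9-month fructose livers, against 610 to 675 in 9-month cornstarch livers, and to 2061 and 1155 in 5-month fructose livers, against 474 to 739 in 5-month cornstarch livers. Lum, a proteoglycan gene, rose at both ages and was the only 1 of the 8 called at 9 months. At 5 months Postn rose too, at 1381 and 633 under fructose against 156 to 258 under cornstarch, and Tpm2 fell, at 19.0 and 18.3 under fructose against 53.3 to 98.6 under cornstarch. The contractile gene Acta2 read 59.8 and 42.3 in 5-month fructose livers, against 14.6 to 90.4 in 5-month cornstarch livers. At 9 months Acta2 read 211, 480 and 91.5 under fructose, against 66.5, 53.8 and 78.6 under cornstarch, without overlap. It passed no test of diet. Portal fibroblast markers (8 genes) summed to 383 to 787 in 9-month fructose livers, against 206 to 270 in 9-month cornstarch livers, and to 257 and 323 in 5-month fructose livers, against 188 to 300 in 5-month cornstarch livers. Of 7 tested, 1 rose at 9 months and 0 at 5 months.

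Vascular endothelial markers (7 genes) summed to 3400 to 3997 under fructose, against 1292 to 2151 under cornstarch, at 9 months, and to 4237 and 4346 under fructose, against 1693 to 2448 under cornstarch, at 5 months. Of the 7, 1 rose at 9 months and 3 at 5 months. Sinusoidal endothelial markers (7 genes) summed to 6580 to 9814 under fructose, against 2769 to 6015 under cornstarch, at 9 months, and to 8017 and 9841 under fructose, against 4545 to 7526 under cornstarch, at 5 months, where 1 rose. Macrophage markers (10 genes) summed to 17353 to 24963 in 9-month fructose livers, against 3752 to 9921 in 9-month cornstarch livers, and to 22206 and 25625 in 5-month fructose livers, against 8689 to 14987 in 5-month cornstarch livers. Of the 10, 7 rose at 9 months and 3 at 5 months. Cholangiocyte markers (7 genes, mostly Spp1 by count) summed to 1552 to 1828 in 9-month fructose livers, against 1024 to 1088 in 9-month cornstarch livers, and to 1246 and 2763 in 5-month fructose livers, against 415 to 678 in 5-month cornstarch livers. Of 6 tested, Spp1 alone rose, at 5 months. Neutrophil markers (8 genes) summed to 25144 and 22735 in 5-month fructose livers, against 11.3 to 96.4 in 5-month cornstarch livers, and to 183 to 301 in 9-month fructose livers, against at most 72.2 in 9-month cornstarch livers. All 8 rose at 5 months and 1 at 9 months. Elane and Camp could be tested only because they were high in 5-month fructose livers. Their calls are no support for a difference. B cell markers (6 genes) summed to 828 and 987 in 5-month fructose livers, against 208 to 570 in 5-month cornstarch livers, and overlapped at 9 months. None of these lists had a gene at 0 in all libraries. Mesothelium markers (6 genes, Krt14 at 0 throughout) summed to 90.4 and 28.6 in 5-month fructose livers, against 0 to 34.6 in 5-month cornstarch livers. The 90.4, in replicate 1, was the highest of all libraries. Adipocyte markers (6 genes, mostly Plin4 by count) overlapped between the diets at each age. Adipoq, Plin1 and Retn were highest in that replicate, at 10.2, 4.38 and 7.29. The part of these cell types in the collagen differences was not tested.

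The comparison of tumours asked which collagen genes differed between the diets in tumours at 9 months. No collagen gene was called with limma, nor any of the 14503 genes tested (0%). Of the 28 members, 4 had an unadjusted limma p under 0.05, as had 1178 of all genes. Of the members edgeR called 0 and DESeq2 called 1, and of all genes edgeR called 0 and DESeq2 called 119. The collagen that DESeq2 called was Col5a3 (ENSMUSG00000004098, chromosome 9, 20770050 to 20815067), which encodes a type V chain. Its normalised counts were 52.2, 72.0 and 95.7 in fructose tumours, against 366 and 208 in cornstarch tumours. The diets did not overlap, and the log2 fold change of Col5a3 was -1.94 (SE 0.40, limma adjusted p = 0.236). Col4a1 read 1955, 2882 and 2966 normalised counts in fructose tumours, against 1323 and 1718 in cornstarch tumours, a log2 fold change of 0.76 (SE 0.21, adjusted p = 0.419). Col4a2 read 1341, 2139 and 1704 normalised counts in fructose tumours, against 772 and 1130 in cornstarch tumours, a log2 fold change of 0.86 (SE 0.27, adjusted p = 0.460). Both type IV genes were higher in every fructose tumour than in either cornstarch tumour, as was Col15a1, with 137, 292 and 251 normalised counts against 123 and 79.3 (log2 fold change 1.12, SE 0.38, adjusted p = 0.517). The median log2 fold change was 0.07 over the members and -0.03 over all genes, and the median over the members was 0.39 without replicate 1 and -0.30 without replicate 2 of the cornstarch tumours.

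The genes of types I and III, which rose under fructose in liver, passed no test of diet in tumours. Col1a1 read 416, 366 and 795 normalised counts in fructose tumours, against 733 and 180 in cornstarch tumours. Col1a2 read 505, 461 and 710 in fructose tumours, against 754 and 271 in cornstarch tumours. Col3a1 read 1353, 794 and 1074 in fructose tumours, against 1772 and 742 in cornstarch tumours. For each of the 3 genes the cornstarch tumours lay on both sides of most or all fructose tumours, and replicate 1 was the higher cornstarch tumour. The difference of the diet effects, tumour minus liver, was -1.54 (SE 0.50) for Col3a1, -1.68 (SE 0.57) for Col1a2 and -2.11 (SE 0.89) for Col1a1 on the log2 scale. These were the 3 members with an unadjusted limma p under 0.05, and each had an adjusted p of 0.99999, while 424 of all genes had an unadjusted p under 0.05. No collagen was called in this test by limma, edgeR or DESeq2, and limma called 0% of all genes. The median over the members was -0.59, beside -0.03 for all genes.

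Tumour against liver at 9 months asked which collagen genes differed between tumour and liver tissue. The type IV genes Col4a1 and Col4a2 rose in tumours under each diet, and Col5a3 fell under each. Over both diets 10 of 28 members rose in tumours, where 13.4% of all genes rose, and 1 fell, where 10.5% fell. Under fructose 3 rose and 1 fell, where 5.75% of all genes rose and 4.46% fell. Under cornstarch 4 rose and 1 fell, where 4.82% of all genes rose and 0.889% fell. Of the 7 basement membrane members 5 rose over both diets, at a median log2 fold change of 1.39, beside 0.35 for all members and -0.01 for all genes. Of the 8 fibrillar members 3 rose and 1 fell, and of the 13 other collagens tested 2 rose. The count over both diets was 6 and 7 without replicate 1 and replicate 2 of the cornstarch tumours, and 7 without replicate 2 or 3 of the fructose livers or replicate 2 of the cornstarch livers. Under fructose it was 2 without replicate 2 of the livers. Under cornstarch it was 2 without replicate 2 of the tumours or replicate 2 of the livers, and 3 without replicate 1 of the tumours or replicate 3 of the livers.

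Col4a1 averaged 2601 ± 561 normalised counts (SD, n = 3) in fructose tumours, against 1338 ± 76.3 (SD, n = 3) in 9-month fructose livers. In cornstarch tumours it averaged 1521 ± 279 (SD, n = 2), against 544 ± 73.7 (SD, n = 3) in 9-month cornstarch livers. Every tumour was above every liver of its diet. On the log2 scale Col4a1 rose by 0.93 (SE 0.19, limma adjusted p = 0.0137) under fructose and by 1.48 (SE 0.21, adjusted p = 0.0050) under cornstarch. Col4a2 averaged 1728 ± 400 normalised counts in fructose tumours, against 680 ± 16.8 in fructose livers (SD, n = 3 each). In cornstarch tumours Col4a2 averaged 951 ± 253 (SD, n = 2), against 346 ± 100 (SD, n = 3) in cornstarch livers. It rose by 1.32 (SE 0.24, limma adjusted p = 0.0084) under fructose and by 1.47 (SE 0.27, adjusted p = 0.0127) under cornstarch. Both genes kept their call over both diets without any 1 of the 11 libraries. Within a diet, Col4a1 lost it under fructose without replicate 2 of the livers, and both genes lost it under cornstarch without replicate 2 of the tumours.

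The minor type IV genes were uneven among tumours. Col4a3 read 353, 839 and 72.2 normalised counts in fructose tumours and 186 and 1146 in cornstarch tumours, against 10.8 to 120.0 in the 9-month livers of both diets. The lowest tumour, replicate 3 under fructose, lay within the range of the livers. Over both diets Col4a3 rose by 2.93 (SE 0.78, limma adjusted p = 0.0220) on the log2 scale, and it passed under neither diet alone. Col4a4 ranged from 11.3 to 163 normalised counts in fructose tumours and stood at 56.4 and 271 in cornstarch tumours, against 5.20 to 24.9 in the 9-month livers, and rose by 2.66 (SE 0.71, adjusted p = 0.0220). The ratio of Col4a3 to Col4a4 counts was 3.30 to 6.38 in tumours and 1.40 to 5.82 in 9-month livers. In both genes replicate 2 was the highest tumour of its diet, and in both replicate 3 was the lowest fructose tumour. Col4a5, on the X chromosome (141475385 to 141689234), read 122 to 415 normalised counts in fructose tumours, against 27.1 to 44.8 in fructose livers, and rose by 2.50 (SE 0.62, limma adjusted p = 0.0308). In cornstarch tumours Col4a5 read 48.0 and 270, against 44.6 to 87.8 in cornstarch livers, and did not pass the test there. Without replicate 2 of the cornstarch tumours the calls of Col4a3, Col4a4 and Col4a5 over both diets were lost. Those of Col4a4 and Col4a5 were also lost without replicate 2 of the cornstarch livers, and that of Col4a5 without replicate 1 of the fructose livers. Under fructose alone Col4a5 lost its call without replicate 3 of the tumours or any 1 of the 3 livers. Col4a3 shares 563 exonic bases with a transcript on the opposite strand, C430014B12Rik, whose mean was 12.1 normalised counts, and their reads cannot be told apart.

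**Figure D4:**
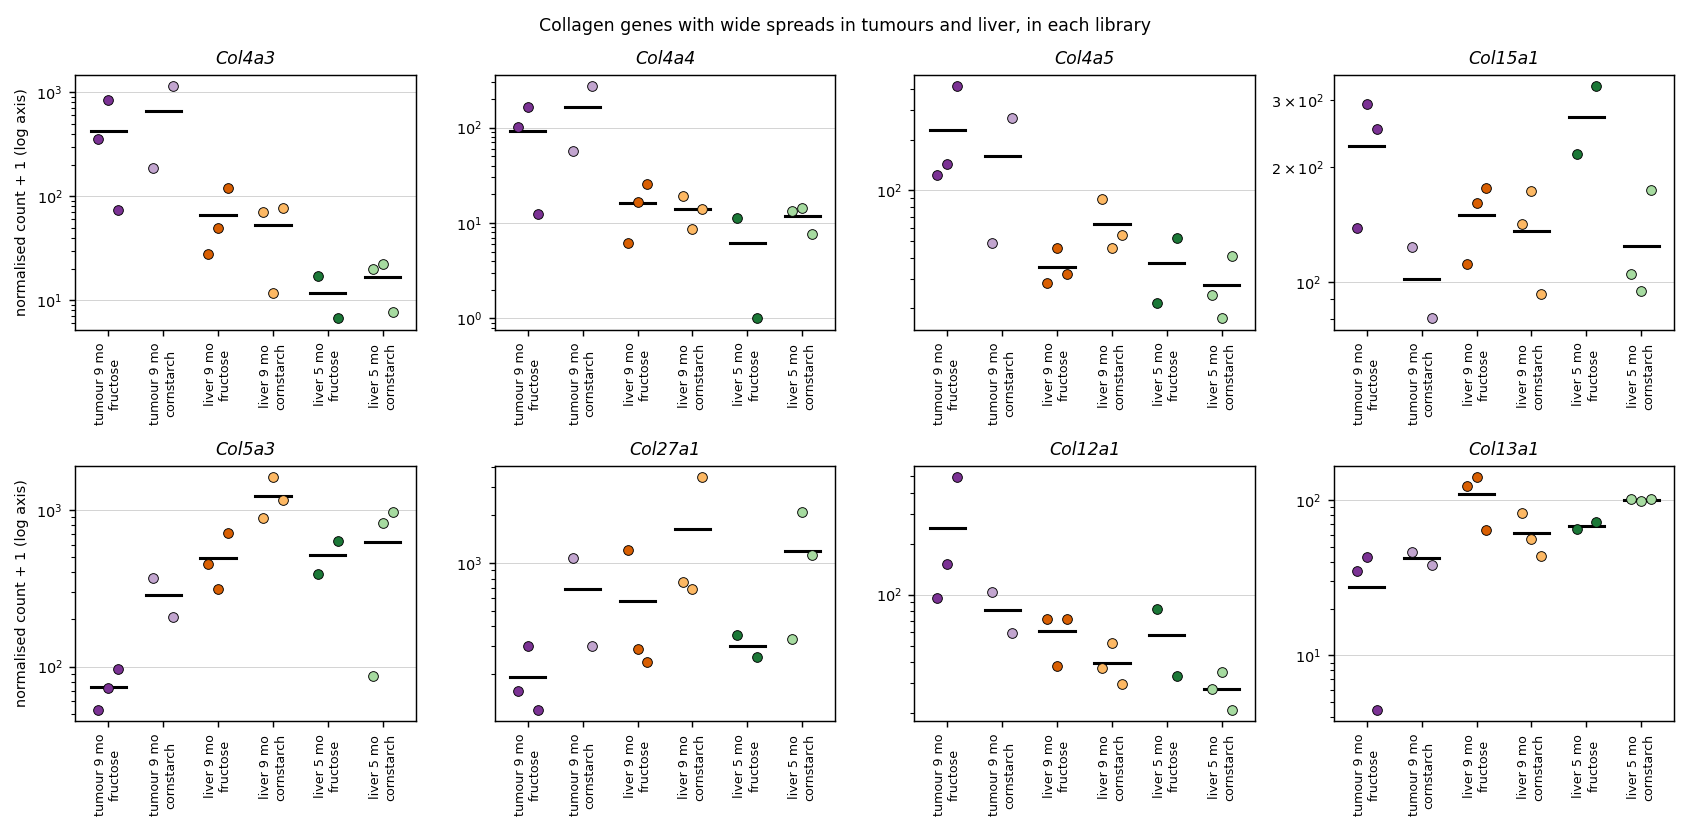
Normalised count + 1 on a log axis for 8 collagen genes in each library (points), with the mean of each group (horizontal lines), for 2 tumour groups and 4 liver groups. Col4a3 spans 72.2 to 1146 counts over the 5 tumours, and Col5a3 lies at 52.2 to 95.7 in fructose tumours, below every liver of that diet.

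Col5a3 was the member that fell. It read 52.2, 72.0 and 95.7 normalised counts in fructose tumours, against 448, 314 and 713 in fructose livers. In cornstarch tumours it read 366 and 208, against 884, 1612 and 1165 in cornstarch livers. Every tumour was below every liver of its diet, and Col5a3 fell by 2.69 (SE 0.35, limma adjusted p = 0.0023) under fructose and by 2.10 (SE 0.40, adjusted p = 0.0155) under cornstarch on the log2 scale. The fall over both diets was called without any 1 of the 11 libraries, while the call under cornstarch was lost without replicate 2 of the tumours or replicate 2 of the livers. The partners of its product differed: Col5a1 and Col5a2 passed no test of tumour against liver, at 154 to 257 and 184 to 266 normalised counts in the 5 tumours against 76.8 to 220 and 53.8 to 258 in the 6 livers. Col27a1 read 119 to 300 normalised counts in fructose tumours, against 238 to 1200 in fructose livers, and 1072 and 302 in cornstarch tumours, against 690 to 3451 in cornstarch livers, and passed no test.

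Col3a1 and Col1a2 rose in tumours under cornstarch. Col3a1 read 1772 and 742 normalised counts in cornstarch tumours, against 324 to 372 in cornstarch livers, and rose by 1.71 (SE 0.37, limma adjusted p = 0.0284) on the log2 scale. Col1a2 read 754 and 271 in cornstarch tumours, against 112 to 166 in cornstarch livers, and rose by 1.76 (SE 0.43, adjusted p = 0.0414). For Col1a1 the log2 fold change was 2.49 (SE 0.66, adjusted p = 0.0556). Col3a1 and Col1a2 lost the call without replicate 1 of the cornstarch tumours or any 1 of the 3 cornstarch livers. Under fructose the tumours and livers overlapped for all 3 genes, with Col3a1 at 794 to 1353 normalised counts in tumours, against 713 to 1374 in livers. None of the 3 was called there, and whether the tumour difference depended on diet was the test of the difference given above, which no collagen passed. Over both diets Col3a1 rose by 0.93 (SE 0.25, adjusted p = 0.0226), Col1a1 by 1.44 (SE 0.45, adjusted p = 0.0402) and Col1a2 by 0.92 (SE 0.29, adjusted p = 0.0405). Col3a1 lost this call without replicate 1 of the cornstarch tumours or replicate 2 or 3 of the fructose livers. Col1a1 and Col1a2 kept it in 4 of the 11 fits with a library left out and lost it without replicate 1 or 3 of the fructose tumours, replicate 1 of the cornstarch tumours, replicate 2 or 3 of the fructose livers or replicate 1 or 2 of the cornstarch livers.

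Col15a1, Col14a1, Col16a1 and Col6a6, which rose in 5-month fructose livers, passed no test of tumour against liver. Col14a1 read 1259, 1346 and 547 normalised counts in fructose tumours, against 1097, 1579 and 1476 in fructose livers, and 1261 and 1186 in cornstarch tumours, against 1107, 885 and 565 in cornstarch livers. Col16a1 read 53.4 to 71.3 in fructose tumours, against 53.1 to 71.6 in fructose livers, so the ranges nearly coincided. In cornstarch tumours Col16a1 read 79.1 and 53.7, against 37.6 to 47.6 in cornstarch livers. Col6a6 read 86.1, 14.6 and 94.0 normalised counts in fructose tumours, against 31.4 to 40.3 in fructose livers, and 120.0 and 175 in cornstarch tumours, against 18.4 to 56.0 in cornstarch livers. The cornstarch tumours were above every liver for Col6a6, and the fructose tumours lay on both sides of the livers. Col15a1 read 137 to 292 in fructose tumours, against 110 to 176 in fructose livers, and 123 and 79.3 in cornstarch tumours, against 91.7 to 172 in cornstarch livers. The genes of the type I chains differed in this: the ratio of Col1a1 to Col1a2 was 0.793 to 1.12 in fructose tumours, against 0.598 to 1.06 in fructose livers, and 0.972 and 0.667 in cornstarch tumours, against 0.405 to 0.576 in cornstarch livers. At 5 months the ratio was 0.581 and 0.429 in fructose livers, against 0.288 to 0.416 in cornstarch livers.

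Of the other collagens, Col8a1 and Col12a1 rose over both diets. Col12a1 encodes a large collagen on the surface of fibrils. It read 94.8, 150 and 490 normalised counts in fructose tumours, against 37.0 to 71.2 in fructose livers, and 103 and 58.3 in cornstarch tumours, against 28.6 to 50.7 in cornstarch livers. Every tumour was above every liver of its diet, and the log2 fold change was 1.38 (SE 0.40, limma adjusted p = 0.0322) over both diets and 1.73 (SE 0.54, adjusted p = 0.0679) under fructose. The call over both diets was lost without either cornstarch tumour, replicate 2 of the fructose livers or replicate 1 or 3 of the cornstarch livers. Col8a1 read 30.7 to 83.5 normalised counts in fructose tumours, against 17.7 to 37.0 in fructose livers, and 32.0 and 27.3 in cornstarch tumours, against 7.71 to 15.4 in cornstarch livers. It rose by 1.20 (SE 0.32, adjusted p = 0.0226), a call lost without either cornstarch tumour or replicate 3 of the fructose livers. Col13a1 read 33.9, 42.1 and 3.48 normalised counts in fructose tumours, against 63.4 to 139 in fructose livers, and 45.4 and 37.3 in cornstarch tumours, against 42.9 to 82.0 in cornstarch livers. Its log2 fold change was -1.47 (SE 0.54, adjusted p = 0.0742) over both diets and -2.46 (SE 0.72, adjusted p = 0.0563) under fructose. The filament genes of type VI passed no test, with Col6a3 at 0.57 (SE 0.21, adjusted p = 0.0728). Replicate 3 of the fructose tumours had the lowest Col13a1 and Col14a1 of the 16 libraries, at 3.48 and 547 normalised counts, and the highest Col12a1, Col4a5 and Col23a1, at 490, 415 and 97.4. No other library was above 21.3 for Col23a1, a membrane collagen, which passed no test.

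**Figure D5:**
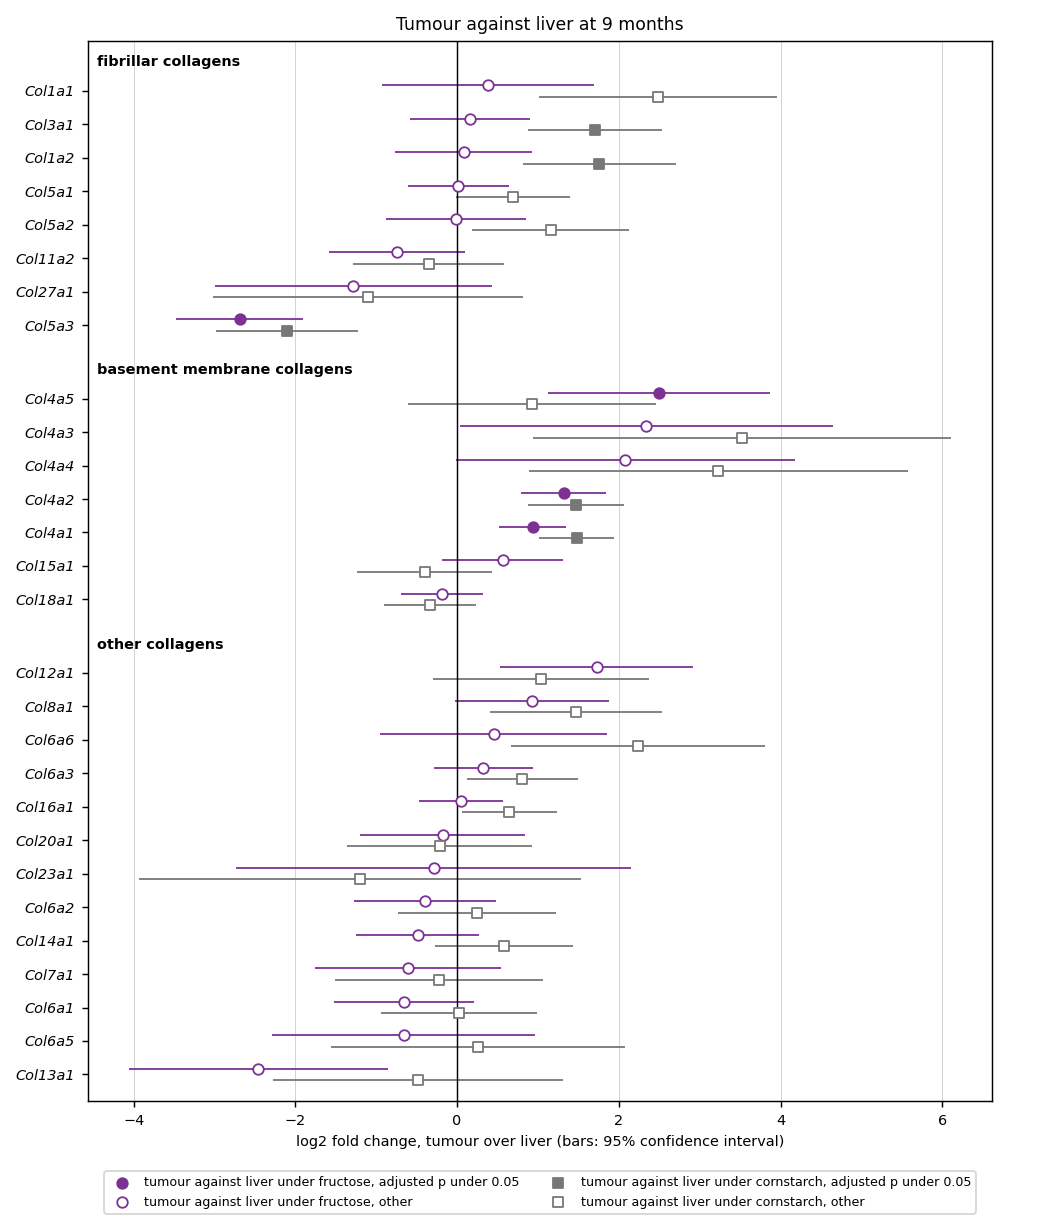
Log2 fold change of tumour over liver at 9 months (x axis, with 95% confidence intervals) for the 28 tested collagen genes by class, under fructose (circles) and under cornstarch (squares), with filled symbols for a limma adjusted p under 0.05. Col4a1 and Col4a2 lie right of 0 and Col5a3 left of 0 under both diets, and the fibrillar genes of types I and III are near 0 under fructose.

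Among the genes around collagen, 9 of 27 synthesis genes rose in tumours over both diets and 1 fell, where 13.4% of all genes rose and 10.5% fell. The same shares apply to the lists that follow. Adamts14, a propeptide-cutting enzyme, rose by 3.26 (SE 0.42, limma adjusted p = 0.00067) on the log2 scale. Crtap and P3h1, members of 1 prolyl hydroxylation complex, rose by 1.07 (SE 0.15, adjusted p = 0.00096) and 0.90 (SE 0.14, adjusted p = 0.0015). The gene that fell was Pcolce2, an enhancer of propeptide removal, at -1.55 (SE 0.40, adjusted p = 0.0198). Of 10 collagen receptors 4 rose and 0 fell, with Ddr1 at 3.40 (SE 0.21, adjusted p = 3.8e-05) and Itga2 at 2.74 (SE 0.54, adjusted p = 0.0058). Of 16 basement membrane partners 5 rose and 2 fell, and the share that fell was near that of all genes. Nid1, which links laminin to type IV collagen, rose by 3.13 (SE 0.31, limma adjusted p = 0.00021), and the laminin gene Lama5 by 2.51 (SE 0.25, adjusted p = 0.00024). Lama3 and Lamb3, chains of the laminin beneath stratified epithelium, fell by 1.08 (SE 0.28, adjusted p = 0.0206) and 1.10 (SE 0.33, adjusted p = 0.0351). Of 18 TGF-beta genes 4 rose and 0 fell, with the ligand Tgfb2 at 2.04 (SE 0.31, adjusted p = 0.0015) and the receptor Tgfbr2 at 1.44 (SE 0.22, adjusted p = 0.0016). Without replicate 2 of the cornstarch tumours Pcolce2, Lama3 and Lamb3 lost their calls, and Lamb3 lost it also without replicate 2 or 3 of the fructose tumours, replicate 1 or 3 of the fructose livers or replicate 2 or 3 of the cornstarch livers.

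Cell type markers differed between tumours and livers too. Cholangiocyte markers (7 genes) summed to 3736 to 11710 normalised counts in fructose tumours, against 1552 to 1828 in fructose livers, and to 10990 and 6256 in cornstarch tumours, against 1024 to 1088 in cornstarch livers. Spp1 and Tspan8 made up most of these sums and were the 2 of 6 tested that rose over both diets. The duct keratin gene Krt19 read 11.3, 6.47 and 35.7 in fructose tumours, against 14.6, 62.7 and 19.9 in fructose livers, and the list had a median log2 fold change of -0.21 under fructose. Stellate cell markers summed to 5505 to 11668 in fructose tumours, against 8185 to 9567 in fructose livers, and to 8824 and 9252 in cornstarch tumours, against 6122 to 7518 in cornstarch livers. Of these 10 genes 1 rose and 4 fell over both diets. Reln was a large part of the tumour sums. It read 1743, 7431 and 7000 in fructose tumours and 2670 and 5699 in cornstarch tumours, against 562 to 1429 in the 9-month livers. Lrat, Des, Rgs5, Ecm1, Colec11, Dcn and Hgf were lower in every fructose tumour than in any fructose liver. Pdgfrb and Hand2 overlapped there. Myofibroblast markers summed to 752 to 975 in fructose tumours, against 1090 to 1848 in fructose livers, and to 827 and 1630 in cornstarch tumours, against 610 to 675 in cornstarch livers. Of the 8 genes 0 rose and 1 fell, Tpm2. Portal fibroblast markers summed to 409 to 693 in fructose tumours, against 383 to 787 in fructose livers, and to 536 and 579 in cornstarch tumours, against 206 to 270 in cornstarch livers. Of 7 tested 1 rose and 1 fell. Vascular endothelial markers summed to 2287 to 3430 in fructose tumours, against 3400 to 3997 in fructose livers, and to 1960 and 2307 in cornstarch tumours, against 1292 to 2151 in cornstarch livers. Of the 7 genes 1 rose and 1 fell. Sinusoidal endothelial markers summed to 2554 to 6290 in fructose tumours, against 6580 to 9814 in fructose livers, and to 3467 and 5479 in cornstarch tumours, against 2769 to 6015 in cornstarch livers, with 0 of 7 called. Macrophage markers summed to 5785 to 15157 in fructose tumours, against 17353 to 24963 in fructose livers, and to 5139 and 5609 in cornstarch tumours, against 3752 to 9921 in cornstarch livers. Of the 10 genes 0 rose and 2 fell. B cell markers summed to 1425 and 5060 in cornstarch tumours, against 287 to 590 in cornstarch livers, and overlapped under fructose, with 0 of 6 called. Hepatocyte markers overlapped between tumour and liver under fructose, and summed to 2309085 and 4178662 in cornstarch tumours, against 1402486 to 1697712 in cornstarch livers. Alb made up most of these sums. Alb and Apoa1 were higher in each cornstarch tumour than in any cornstarch liver. For Ttr, Cps1, Cyp2e1, Hnf4a, Tat and Pck1 the cornstarch tumours and livers overlapped. The part of these cells in the collagen differences was not tested.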

How the data were processed

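The deposited table gave 1 normalised count per gene and library, a signal that the authors had made from read counts divided by a size factor. Per the submitters' processing notes FastQC, Trim Galore, STAR, RSEM and DESeq2 were used on GRCm38, with no versions or roles given. The mRNA kit and column extraction are per the labels' protocols, and the strand setting is not given in the labels or the table. Values were whole multiples of what 1 read was worth in each library (100% of values within 0.01), so whole reads were recovered and used for the count tests.

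Symbols, exon lengths and coordinates are from GENCODE M21 on GRCm38, which held 46574 of the 47069 identifiers (98.9%). Normalised counts were set on the log2(value + 1) scale. Genes that reached 10 in 2 or more libraries of a fit were tested with limma 3.58.1 in R 4.3.3, in 1 fit of the 11 livers for diet and age and 1 fit of the 11 libraries at 9 months for tumours. Benjamini-Hochberg adjustment ran over all tested genes, and calls had an adjusted p under 0.05. The groups had 3, 2, 3, 3, 2 and 3 libraries, and replicate numbers follow the order of deposit and pair no samples. Count tests on the recovered reads used edgeR 4.0.16 and DESeq2 1.42.0. Of the collagens edgeR called 15 at 5 months, 7 at 9 months and 12 between tumour and liver over both diets, and DESeq2 called 15, 8 and 14. The other alternatives changed the pseudocount, filter, scaling, moderation, weights, libraries fitted and libraries left out. The fits were also run on simulated counts with the same relative spread for every gene. That run does not show how the calls hold under the real spread. Means per kilobase used exon length.

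Values are given in every library for members called in a liver diet comparison with a mean of at least 50 normalised counts, and for the 3 smallest p elsewhere. Other members appear by range, or were named after their values were seen. The members and all gene lists were chosen with earlier results of these data known. Replicates of a group differed by more than counting error (chi-square per degree of freedom 42.3 to 225).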

Additional observations from a re-analysis of the deposited data

How the results depend on the processing

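Of 2504 recomputed values for 111 gene results, 2219 kept their direction and side of the threshold, 251 fell short of it, 34 newly passed it and 0 turned direction. Counts here include Col6a5 where it was called. The number of called collagens over both ages in liver stayed within 11 to 17, against 13. At 5 months, against 15, it was 7 without the XX libraries (the 2 that stood apart by sex) and 8 to 13 with 1 library left out. At 9 months, against 7, it was 4 with array weights, 0 with the compared groups alone, 2 without the XX libraries and 0 to 8 with 1 library left out. For the diet effect at 9 minus 5 months, against 0, it was 1 with array weights and 1 with DESeq2. For age, against 1, it was 0 with a pseudocount of 0.5, without a filter, with upper quartile scaling, in 1 fit of all 16 libraries, without the XX libraries and with a sex term, 2 with DESeq2, and 0 to 1 with 1 library left out. For diet in tumours, against 0, it was 1 with DESeq2. Tumour against liver gave 6 to 13 with 1 library left out over both diets, against 11. Under fructose, against 4, DESeq2 gave 7 and leaving out 1 library 2 to 5. Under cornstarch, against 5, DESeq2 gave 9 and leaving out 1 library 2 to 4. The cause was not tested, apart from the smaller groups that an omission leaves. No paired analysis was possible because the labels carry no replicate numbers.

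Groups of 2 and 3 libraries limit all of these calls, and where an omission left 1 library in a group, its spread was assumed equal to that of the remaining groups. Counting error is small beside this spread, except for members near 10 normalised counts.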
